A study of Mus musculus with 8 samples.

Results

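The genes described are 10 TNF superfamily ligands that dendritic cells can make: Tnf, Lta, Ltb, Tnfsf4, Tnfsf8, Tnfsf9, Tnfsf10, Tnfsf13b, Tnfsf15 and Cd70. They were taken by gene name from a table of 31053 genes, and each matched 1 row. The count libraries came from mouse spleen conventional dendritic cells (cDCs), which had been kept for 9 h with 100 nM CpG-B, an oligonucleotide that activates Toll-like receptor 9, and then sorted for CD11c and MHC class II without lineage markers. For the purified cells put into culture, before that sort, the design text gives about 20% dendritic cells. There were 4 libraries of genotype CKO (D146, D149, D163 and D169) and 4 of genotype WT (D142, D150, D154 and D164). All 8 were stimulated, so the comparison is between genotypes after stimulation. The labels give CKO as the genotype without the deleted gene or a Cre driver, so the targeted gene could not be checked, and the sources used here give no strain, age or pooling of animals.

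TNF superfamily ligands are mostly membrane proteins that assemble as trimers and bind receptors of the TNF receptor superfamily. Some are also cut from the membrane and act as soluble cytokines. In dendritic cells they are known for inflammatory signalling (TNF and the lymphotoxins), for costimulation of T cells (OX40L, 4-1BBL, CD70, CD30L and TL1A), for triggering cell death (TRAIL) and for survival of B cells (BAFF).

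No ligand gene passed the test between CKO and WT cDCs. The test was edgeR's quasi-likelihood F test, with p-values adjusted by Benjamini-Hochberg over all 11702 genes tested. Of the 9 ligand genes with enough counts, 0 had an adjusted p under 0.05, where 8.87% of all genes tested did (4.3% higher and 4.57% lower in CKO). None of the 9 reached an unadjusted p of 0.05 either, against 28.6% of all genes, and DESeq2 and limma-voom also called 0. The smallest adjusted p in edgeR was 0.239, for Ltb. In each of the 9 genes the CKO and WT libraries overlapped, whereas 15.9% of all genes tested had no overlap. Tnfsf13b had too few counts to be tested. For 7 of the 9 genes the 95% interval of the CKO over WT ratio excluded a change of 2-fold in either direction. The median log2 fold change was 0.03 over the 9 genes and 0.03 over all genes tested, and the median size without its sign was 0.166 and 0.284.

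The libraries held 25304765 to 40950088 counts in genes. CKO D149 stood apart from the other 7 libraries on the second principal component, and the median Pearson r of CKO D146 over genes was 0.975 with the other CKO libraries and 0.976 with the WT libraries. The count of ligand genes called was 0 without CKO D146 and 0 without CKO D149. Of the cDC markers, Zbtb46 averaged 268 CPM (counts per 1000000 counts, with TMM scaling between libraries) in CKO and 244 CPM in WT, and Flt3 averaged 114 and 103 CPM in CKO and WT. Itgax, the gene of the sort marker CD11c, averaged 8.67 CPM in CKO and 6.97 CPM in WT. The cDC1 markers Xcr1 and Clec9a were under 1 CPM on average in both genotypes. No gene of the 6 cDC, 7 cDC1 and 7 cDC2 markers was called, and the cDC1 sums (2645 to 3713 CPM in CKO, 3250 to 3877 in WT) and cDC2 sums (221 to 350.1 CPM in CKO, 160.0 to 296 in WT) overlapped. Irf8 carried most of the cDC1 sum, averaging 3128 CPM in CKO and 3386 CPM in WT, and Irf4 most of the cDC2 sum, averaging 233 and 157 CPM in CKO and WT. The 6 plasmacytoid dendritic cell markers summed to 149.3 to 158 CPM in CKO and 91.1 to 182 CPM in WT. Tcf4 carried most of that sum, averaging 105.4 CPM in CKO and 98.8 CPM in WT, and was not called. Of the others, Ly6d and Cox6a2 were called higher in CKO. Siglech, Ccr9 and Klk1 were lower on average in CKO (log2 fold changes -0.53, -0.57 and -0.43), and none of them was called. The 6 erythroid markers summed to 6.53 to 87.3 CPM in CKO and 62.7 to 214 CPM in WT, with 1 called (Alas2, lower in CKO), and 8 monocyte and macrophage markers to 24.95 to 52.2 CPM in CKO and 42.9 to 58.5 CPM in WT, with none called. The 6 neutrophil markers were at 0 in CKO and at most 1.83 CPM in WT, with Ly6g, Elane and Camp at 0 throughout. The part of these cells in the values was not tested.

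CPM divided by gene length in kilobases allow only a rough comparison of levels between genes. The counting program and annotation are not named. GC content of the ligand genes, 42.6% (Tnfsf8) to 61.0% (Ltb), was not adjusted for on this scale. On that scale Tnfsf9 was the highest ligand gene in all 8 libraries, at 160.1 ± 42.0 CPM per kilobase in CKO and 179.6 ± 28.9 in WT (mean ± SD, n = 4 each). Its mean over the 8 libraries was above that of 97.2% of all genes tested. Tnfsf4 (75.1 ± 16.3 in CKO, 73.6 ± 14.3 in WT) and Cd70 (69.1 ± 10.1 in CKO, 74.0 ± 9.24 in WT) came next and did not differ beyond their spread, Tnfsf4 being the higher of the pair in 5 of 8 libraries. Lta followed at 33.3 ± 18.6 in CKO and 36.4 ± 12.0 in WT, and lay above Tnf in 7 of 8 libraries. Tnf stood at 25.7 ± 9.27 in CKO and 23.4 ± 4.84 in WT, and Ltb at 9.88 ± 3.28 in CKO and 6.33 ± 2.95 in WT. Every library had Tnf above Ltb and Ltb above the remaining 4 genes. Tnfsf10, Tnfsf15 and Tnfsf8 had means of 1.59, 1.07 and 1.00 CPM per kilobase over the 8 libraries. Tnfsf10 lay above Tnfsf8 in every library, though only just in CKO D169 (1.218 against 1.208). Tnfsf15 could not be placed against either of them, and Tnfsf13b was lowest in every library.

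**Figure D1:**
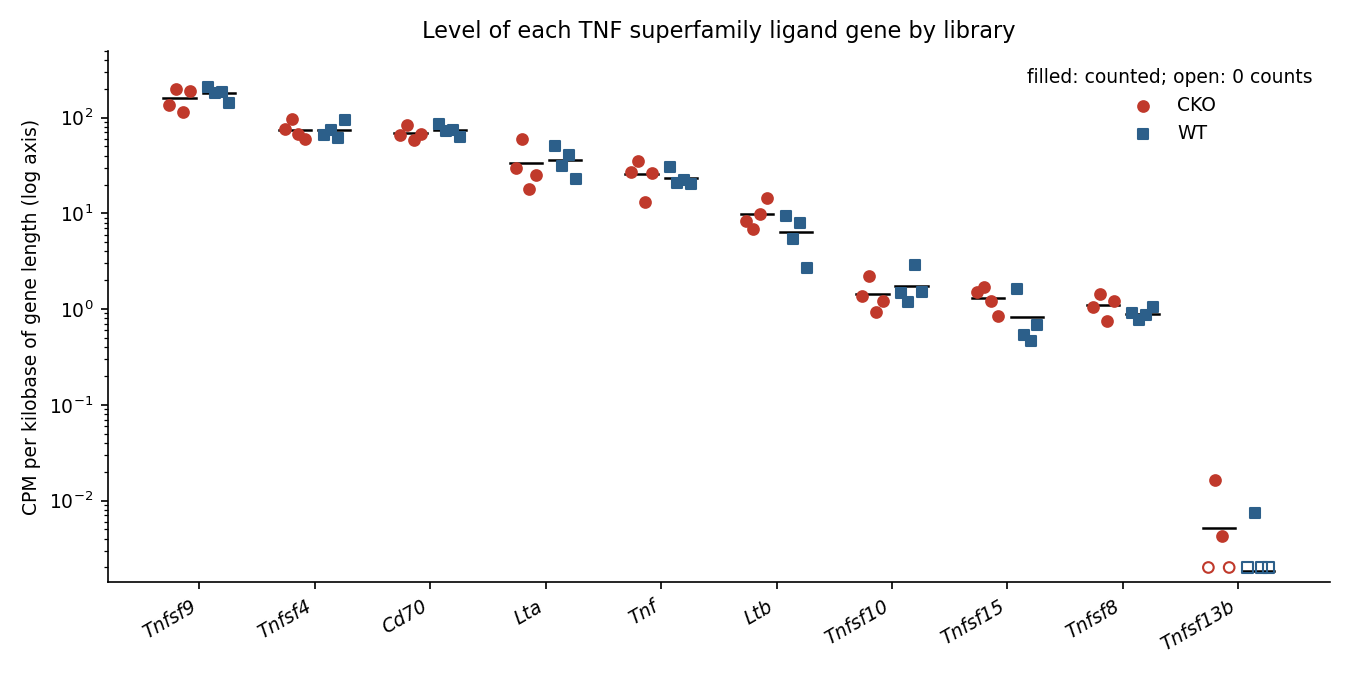
CPM per kilobase of gene length (log axis) for each ligand gene in each library, with CKO as red circles, WT as blue squares and a black line at each group's mean. Libraries with 0 counts are open symbols at the foot of the plot. The genes span Tnfsf9, at 114 to 201 in CKO and 141 to 211 in WT, to Tnfsf13b, at no more than 0.0165, and CKO and WT points overlap for every gene.

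The genes of TNF and of both lymphotoxins sit side by side on chromosome 17 of the mm10 build, within the MHC region. Ltb lies at 35194439 to 35196320 on the plus strand, Tnf at 35199381 to 35202007 on the minus strand and Lta at 35203165 to 35205351 on the minus strand. The gap is 3060 bases between Ltb and Tnf and 1157 bases between Tnf and Lta, with no other protein-coding gene in either. RefSeq promoters were at hand for 7 of the 10 ligand genes (build GRCm38.p6, whose chromosome coordinates are those of mm10). Those of the 3 neighbours are shown because the genes lie side by side. Each sequence is the 250 bases before the RefSeq start site, 5′ to 3′ on the gene's own strand. The Tnf window is chr17:35202008-35202257 (minus strand), the Lta window chr17:35205352-35205601 (minus strand) and the Ltb window chr17:35194257-35194506 (plus strand), whose end lies inside the gene as the count table bounds it.
Tnf: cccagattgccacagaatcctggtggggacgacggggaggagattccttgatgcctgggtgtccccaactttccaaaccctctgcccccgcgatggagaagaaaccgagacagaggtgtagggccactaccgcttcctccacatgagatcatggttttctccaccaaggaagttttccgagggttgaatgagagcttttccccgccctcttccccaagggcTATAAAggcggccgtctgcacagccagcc
Lta: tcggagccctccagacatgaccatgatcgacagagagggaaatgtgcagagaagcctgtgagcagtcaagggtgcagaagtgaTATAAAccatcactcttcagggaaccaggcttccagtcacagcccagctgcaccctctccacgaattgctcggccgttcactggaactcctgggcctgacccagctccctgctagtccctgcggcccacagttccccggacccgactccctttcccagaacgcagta
Ltb: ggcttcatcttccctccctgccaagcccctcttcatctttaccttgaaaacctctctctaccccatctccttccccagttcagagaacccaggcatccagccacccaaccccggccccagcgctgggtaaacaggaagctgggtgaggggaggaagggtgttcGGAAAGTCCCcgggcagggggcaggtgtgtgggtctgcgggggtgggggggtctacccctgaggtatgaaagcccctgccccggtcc
Capitals mark matches, on either strand, to 5 motifs searched: the NF-κB consensus, the interferon-stimulated response element (TTTCNNTTTC), AP-1 (TGANTCA), the TATA box (TATAAA) and the cyclic AMP response element (TGACGTCA). Tnf had a TATA box at position -29 and Lta one at position -167, counted from the start site, and 12.4% of 32851 RefSeq promoter windows of this length hold one. Ltb had 1 match to the NF-κB consensus, on the opposite strand at position -87, where its own strand reads GGAAAGTCCC, and 7.25% of the windows hold such a match. The other motifs are held by 2.98% (interferon-stimulated response element), 6.75% (AP-1) and 1.55% (cyclic AMP response element) of the windows. No capitals overlap, and a match is a description of letters only.

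Tnf, which encodes the inflammatory cytokine TNF, had 44.6, 58.4, 21.6 and 43.6 CPM in CKO D146, D149, D163 and D169, against 50.0, 33.8, 36.4 and 33.0 CPM in WT D142, D150, D154 and D164. The highest and the lowest library were both CKO, and the 4 WT libraries lay between them. Its log2 fold change (CKO over WT) was 0.14 ± 0.25 (SE), with an adjusted p of 0.764 in edgeR. The ratio was 1.10, with a 95% interval of 0.749 to 1.61.

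Lta, which encodes lymphotoxin α, a secreted relative of TNF that binds the same receptors, had 40.7, 83.4, 25.2 and 34.8 CPM in CKO D146, D149, D163 and D169. In WT D142, D150, D154 and D164 it had 69.9, 42.9, 56.8 and 31.6 CPM. CKO D149 was the highest of all libraries and CKO D163 the lowest. Its log2 fold change was -0.13 ± 0.34 (SE; edgeR adjusted p = 0.839). Without CKO D149 it was -0.58 ± 0.26 (edgeR adjusted p = 0.16, with 0.16 to 0.992 over 20 alternatives). Tnf and Lta ranked the libraries of each genotype in the same order: D149, D146, D169, D163 from high to low in CKO, and D142, D154, D150, D164 in WT. Ltb, Tnfsf9, Cd70 and the summed cDC markers had that WT order too. In CKO, Tnfsf9, Cd70 and the cDC sum ran D149, D169, D146, D163, so a shared order was not particular to Tnf and Lta. Tnf lay at 0.591 to 1.06 times the per-length level of Lta in CKO and at 0.541 to 0.882 times in WT.

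Ltb encodes lymphotoxin β, the membrane partner with which lymphotoxin α forms the ligand of the lymphotoxin β receptor, a signal for the organisation of lymphoid tissue. It had 12.7, 10.4, 15.0 and 21.9 CPM in CKO D146, D149, D163 and D169, against 14.3, 8.13, 11.9 and 4.05 CPM in WT D142, D150, D154 and D164. WT D164 was the lowest library and CKO D169 the highest, and WT D142 and D154 fell within the CKO range. Its log2 fold change was 0.65 ± 0.34 (SE), with an unadjusted p of 0.0854 and an adjusted p of 0.239 in edgeR. The 95% interval of the ratio ran from 0.930 to 2.63, so a 2-fold higher level in CKO was not excluded. The per-length ratio of Lta to Ltb was 3.52, 8.83, 1.84 and 1.75 in CKO D146, D149, D163 and D169, and 5.37, 5.79, 5.22 and 8.56 in WT D142, D150, D154 and D164.

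Ltb is also a gene of lymphocytes, so markers of those cells were summed. The 10 B cell markers summed to 86.4, 27.2, 122.9 and 98.1 CPM in CKO D146, D149, D163 and D169, against 46.1, 30.9, 50.2 and 25.6 CPM in WT D142, D150, D154 and D164. Of the 8 tested, 1 was higher in CKO, Ms4a1, and none of the 10 was at 0 counts in all libraries. The 9 T cell markers summed to 37.8 to 73.8 CPM in CKO, with D169 highest, and to 31.9 to 57.5 CPM in WT, with D142 highest and D164 lowest. Of the 7 tested, 1 was higher in CKO, Cd4, which averaged 1.07 CPM in CKO and 0.265 CPM in WT. Lck and Cd8b1 carried most of the T cell sum, with log2 fold changes of 0.271 and -0.173, and neither was called. Among the others tested, Cd3d and Cd3g were higher on average in CKO (log2 fold changes 0.419 and 0.987). Cd3e and Cd5 were lower on average in CKO (-0.256 and -0.351), and none of these genes was called. Ltb, like the B cell and T cell sums, was at its lowest WT level in D164. So were Tnf, Lta, Tnfsf9, Cd70 and the summed cDC, cDC1 and plasmacytoid dendritic cell markers. In CKO, Ltb was highest in D169 and lowest in D149. The T cell sum was highest there in D169 and lowest in D163, and the B cell sum highest in D163 and lowest in D149. With the B cell markers as a covariate the log2 fold change of Ltb was 0.13 ± 0.35 (edgeR adjusted p = 0.871). The B cell sums of CKO D146, D163 and D169 lay above every WT library, so that fit cannot fully separate the covariate from genotype. With an offset for GC content and gene length the log2 fold change of Ltb was 1.12 ± 0.32 (edgeR adjusted p = 0.0471). Over 20 alternatives the adjusted p of Ltb ran from 0.0402 (limma-voom with quality weights) to 0.871. The part of T cell RNA in the Ltb values was not tested. In sorted bulk samples fewer cells of a type and less RNA per cell cannot be told apart.

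Among all genes tested, the 3 whose library profile lay closest to that of Ltb were Gm32856, Blnk and Cdc6, by the root-mean-square difference of mean-centred log2 CPM over the 8 libraries (0.207, 0.207 and 0.247). Blnk, which encodes an adaptor of B cell receptor signalling, averaged 30.4 ± 7.69 CPM in CKO and 17.3 ± 6.31 CPM in WT (SD, n = 4 each). Cdc6, a DNA replication licensing gene, averaged 3.63 ± 0.424 CPM in CKO and 2.18 ± 1.14 CPM in WT. Gm32856 averaged under 1 CPM in both genotypes. None of the 3 passed the test, with edgeR adjusted p-values of 0.204 for Gm32856, 0.0823 for Blnk and 0.195 for Cdc6, although Blnk passed without CKO D149 (edgeR adjusted p = 0.0451). Blnk also passed with total-count scaling (edgeR adjusted p = 0.0401), in DESeq2 (0.0355) and in limma-voom with quality weights (0.00865), and Cdc6 passed in that last fit (0.0233).

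**Figure D2:**
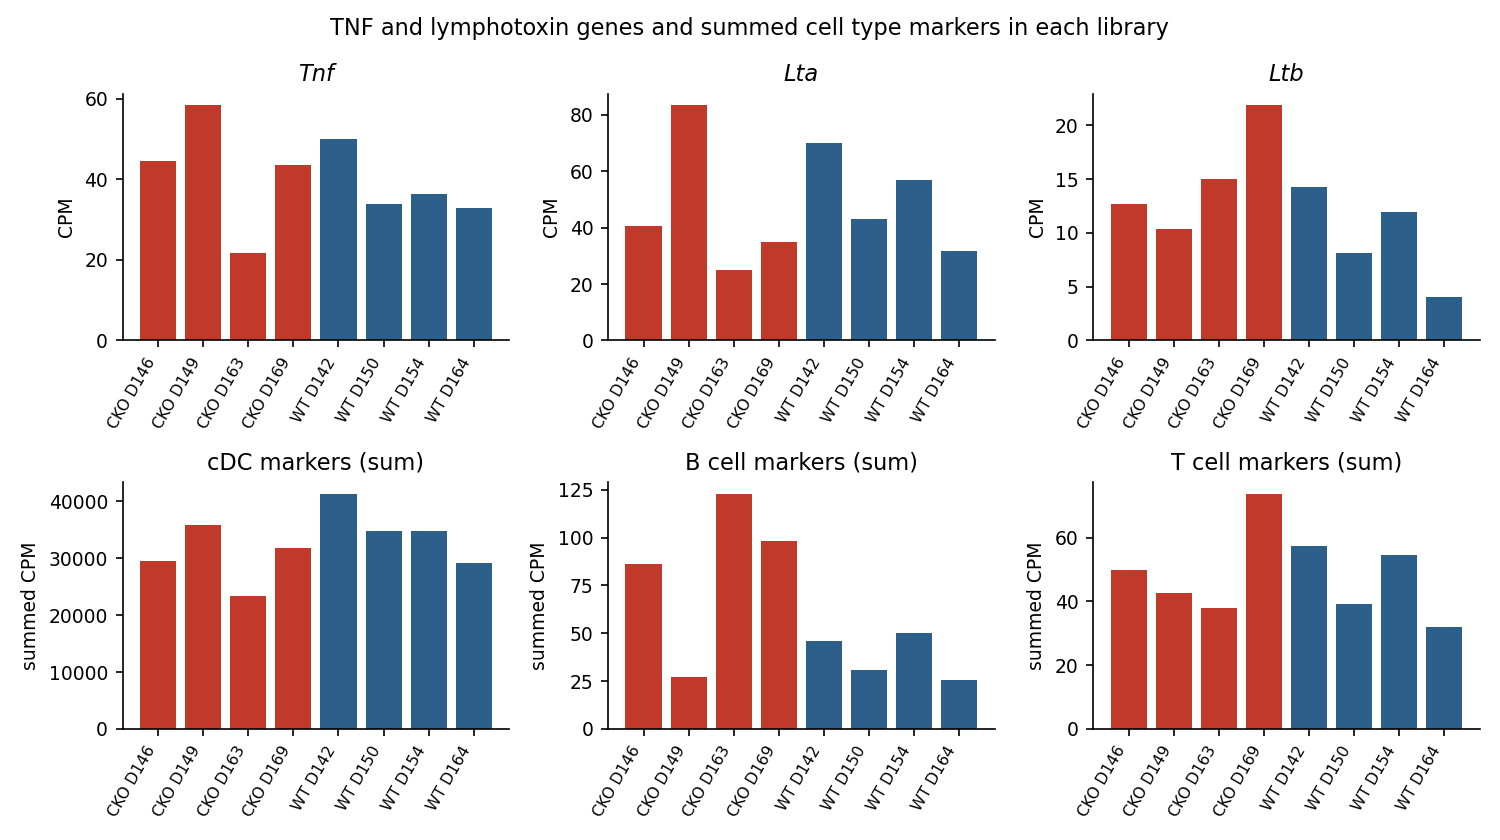
CPM of Tnf, Lta and Ltb (upper row) and summed CPM of the cDC, B cell and T cell marker lists (lower row) in each library, with CKO in red and WT in blue. Each bar is 1 library. Tnf and Lta are highest in CKO D149 among CKO libraries and in WT D142 among WT libraries, while Ltb is highest in CKO D169.

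Of the ligands that costimulate T cells, Tnfsf9 (4-1BBL, the ligand of 4-1BB) was the most abundant. It had 166, 248, 141 and 233 CPM in CKO D146, D149, D163 and D169, against 259, 225, 226 and 173 CPM in WT D142, D150, D154 and D164. The log2 fold change was -0.17 ± 0.19 (SE; edgeR adjusted p = 0.596), and the interval of the ratio was 0.669 to 1.19. Tnfsf9 shares 192 bases of exon with Gm11110, a noncoding gene on the opposite strand, so its counts are less certain, by an unmeasured amount. The bounds of Tnfsf9 in the count table also differ from those in GENCODE M21, the annotation that gave this overlap. Cd70, which encodes the ligand of CD27, lies 38239 bases from Tnfsf9 on chromosome 17. It had 56.0, 69.7, 49.4 and 57.4 CPM in CKO D146, D149, D163 and D169, against 72.3, 60.9, 62.8 and 53.4 CPM in WT D142, D150, D154 and D164. Its libraries differed least of the 9 genes, with a within-group SD of 0.193 on the log2 scale. The interval of its ratio, 0.757 to 1.15, was the narrowest, and the log2 fold change was -0.10 ± 0.14 (SE; edgeR adjusted p = 0.667).

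Tnfsf4, which encodes OX40L, the ligand of OX40 on activated T cells, had 141, 179, 124 and 109.7 CPM in CKO D146, D149, D163 and D169. Its WT values were 121, 137, 113 and 172 CPM in D142, D150, D154 and D164. Both genotypes covered nearly the same range, with a log2 fold change of 0.03 ± 0.17 (SE; edgeR adjusted p = 0.934) and a ratio between 0.783 and 1.33. Among WT libraries Tnfsf4 was highest in D164, the library in which Tnf, Lta, Ltb, Tnfsf9 and Cd70 were lowest.

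Tnfsf8 and Tnfsf15 lie 86194 bases apart on chromosome 4 and were both near the low end. Tnfsf8 (CD30L, the ligand of CD30) had 3.96, 5.44, 2.84 and 4.60 CPM in CKO D146, D149, D163 and D169, against 3.44, 2.90, 3.31 and 4.01 CPM in WT D142, D150, D154 and D164. The log2 fold change was 0.30 ± 0.24 (SE; edgeR adjusted p = 0.435). All WT values lay within the range of the CKO values. Tnfsf15 (TL1A, the ligand of death receptor 3) had 5.11, 5.63, 4.10 and 2.82 CPM in CKO D146, D149, D163 and D169. Its WT values were 5.47, 1.78, 1.57 and 2.27 CPM in D142, D150, D154 and D164. Thus 3 WT libraries lay below every CKO library, and WT D142 was exceeded only by CKO D149. The log2 fold change of 0.69 ± 0.39 (SE; edgeR adjusted p = 0.267) was 1.24 ± 0.30 without WT D142, still short of the threshold (edgeR adjusted p = 0.0517, with 0.0187 to 0.505 over 19 alternatives). The interval of the ratio, 0.892 to 2.91, was the widest of the 9 genes and did not exclude a 2-fold higher level in CKO.

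Tnfsf10, which encodes TRAIL, a ligand of death receptors that interferon induces, had 7.24, 11.6, 4.92 and 6.42 CPM in CKO D146, D149, D163 and D169. In WT D142, D150, D154 and D164 it had 7.67, 6.20, 15.2 and 7.86 CPM. WT D154 was the highest library and the other WT libraries fell within the CKO range. The log2 fold change was -0.30 ± 0.32 (SE; edgeR adjusted p = 0.572), and it was 0.05 without WT D154. Tnfsf13b, which encodes BAFF, the survival factor of B cells, had 0, 3, 1 and 0 counts in CKO D146, D149, D163 and D169 and 0, 2, 0 and 0 counts in WT D142, D150, D154 and D164. A count of 0 allows up to 3 counts, which is 0.0820 to 0.124 CPM in those libraries and covers counting error only. BAFF transcripts were thus at the edge of detection at this depth in both genotypes, and no ratio was formed.

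**Figure D3:**
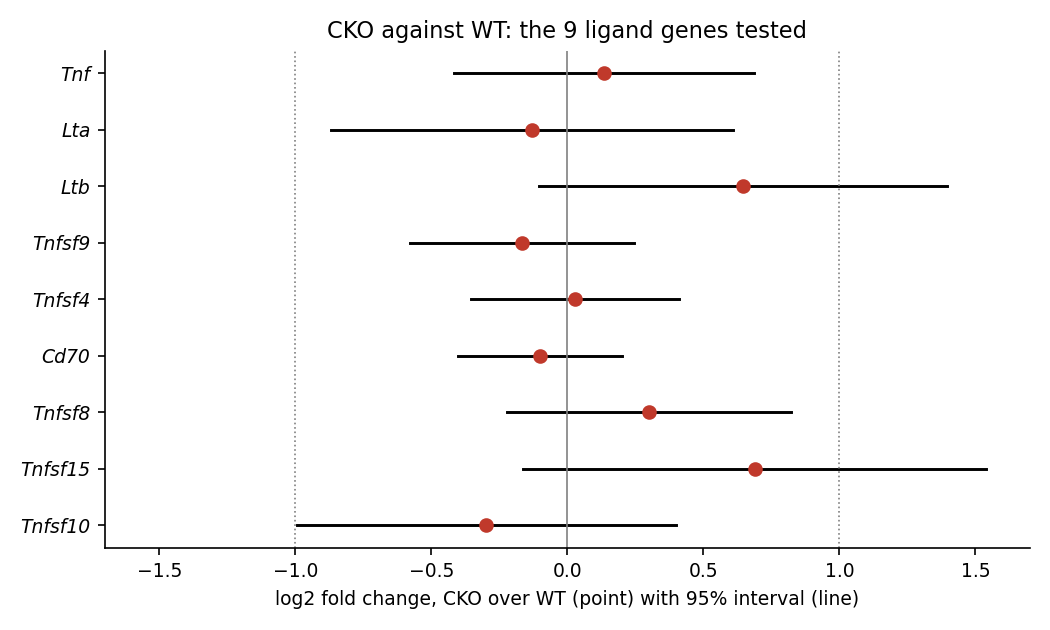
Log2 fold change of CKO over WT (red points) with its 95% interval (black lines) for the 9 ligand genes tested, with dotted lines at a 2-fold change. Every interval includes 0, and those of Ltb and Tnfsf15 extend past the 2-fold line on the side of higher levels in CKO.

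Much of the spread lay between libraries of 1 genotype. CKO D149 was the highest CKO library for 8 of the 9 genes (all but Ltb, for which it was the lowest), and CKO D163 was the lowest for 6: Tnf, Lta, Tnfsf8, Tnfsf9, Tnfsf10 and Cd70. WT D142 was the highest WT library for 6 genes, and WT D164 the lowest for 5. The summed cDC markers moved in the same direction: 35900 CPM in CKO D149 and 23330 CPM in CKO D163, the extremes of that genotype, and 41360 CPM in WT D142 and 29150 CPM in WT D164. Ccr7, at 19588 CPM on average in CKO and 22453 CPM in WT, and Cd74, at 8205 and 10121 CPM in CKO and WT, made up most of that sum. Their part in the ligand values was not tested. Within-group SDs on the log2 scale were 0.474 for Tnf, 0.624 for Lta, 0.650 for Ltb, 0.642 for Tnfsf15 and 0.535 for Tnfsf10, against a median of 0.282 over all genes tested. Those of Tnfsf4 (0.286), Tnfsf8 (0.308) and Tnfsf9 (0.325) were close to that median.

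Ligand signalling also depends on receptors, on the proteases that release the ligands, on proteins that control Tnf mRNA and on the complexes that receptors recruit. Of 74 such genes in 6 lists, 64 were tested and 9 passed in edgeR, 3 higher and 6 lower in CKO. That is 14.1% of those tested, against 8.87% of all genes. Many calls were lost when a library was left out, as they were over all genes: 0 of the 9 remained past the threshold without CKO D163 (where 70 genes were called in all, against 1038), 1 without WT D150 (Tnfrsf1a) and 2 without WT D154 (Tnfrsf1a and Zc3h12a). Without CKO D169, 3 of the 9 remained (Tnfrsf1a, Zc3h12a and Cnot1), and 3 without WT D142 (Tnfrsf1a, Zc3h12a and Adam10). Another 6 remained without CKO D149, 7 without WT D164 and all 9 without CKO D146. The fold changes moved less than the calls. Without CKO D163 the log2 fold change was -0.95 for Tnfrsf1a, -1.35 for Zc3h12a, -1.05 for Fadd and 0.98 for Cnot1, against -1.10, -1.46, -1.03 and 1.04 with all libraries. With the B cell markers as a covariate none of the 9 passed (highest edgeR adjusted p = 0.201), while the log2 fold change was -1.10 for Tnfrsf1a, -1.57 for Zc3h12a, -1.16 for Fadd and 1.14 for Cnot1. Total-count scaling ended the calls of Fadd, Map3k14 and Traf1 (edgeR adjusted p 0.0505, 0.0546 and 0.0561), and fitting without the low-count filter ended those of Map3k14 and Mapkapk2 (0.0654 and 0.0704).

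Of 16 receptors that bind the 10 ligands, decoys included, 15 were tested and 1 fell in edgeR, Tnfrsf1a. An unadjusted p under 0.05 was reached by 5 of the 15, against 28.6% of all genes tested. Of these, Tnfrsf1a, Ltbr and Tnfrsf8 were lower in CKO (log2 fold changes -1.10, -0.78 and -1.04). Tnfrsf22 and Tnfrsf13b were higher (1.06 and 0.33). DESeq2 called 3 lower (Ltbr, Tnfrsf1a and Tnfrsf8) and limma-voom 2 (Ltbr and Tnfrsf1a). Ltbr, the gene of the lymphotoxin β receptor, averaged 11.7 ± 4.45 CPM in CKO and 20.1 ± 1.81 CPM in WT (SD; edgeR adjusted p = 0.0578). Tnfrsf1a encodes TNFR1, the broadly expressed TNF receptor that carries a death domain. Tnfrsf1a had 25.4, 21.5, 14.6 and 18.7 CPM in CKO D146, D149, D163 and D169, against 44.5, 36.5, 55.2 and 35.1 CPM in WT D142, D150, D154 and D164. All CKO libraries lay below all WT libraries, and the log2 fold change was -1.10 ± 0.20 (SE; edgeR adjusted p = 0.0145). The call was lost only with the B cell marker covariate and without CKO D163, among 20 alternative fits (edgeR adjusted p = 0.058 and 0.051), with log2 fold changes of -1.10 and -0.95. Tnfrsf1b, which encodes TNFR2, the other TNF receptor, averaged 243 ± 37.1 CPM in CKO and 257 ± 15.8 CPM in WT (SD, n = 4 each; edgeR adjusted p = 0.707). Tnfrsf9, the receptor gene for the product of Tnfsf9, averaged 1396 ± 494 CPM in CKO and 1518 ± 308 CPM in WT and did not pass; it was chosen after its values were seen. The median log2 fold change of the 15 genes was -0.07.

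Adam10, a membrane protease that sheds several surface proteins, was the 1 gene to rise in edgeR among 9 genes of shedding and processing, all tested. It had 28.1, 29.7, 37.5 and 35.0 CPM in CKO D146, D149, D163 and D169, against 8.50, 15.9, 17.8 and 22.4 CPM in WT D142, D150, D154 and D164. CKO lay above WT throughout (log2 fold change 1.01 ± 0.24, SE; edgeR adjusted p = 0.0305). Adam17, the protease that releases TNF from the membrane, averaged 93.6 ± 2.48 CPM in CKO and 73.4 ± 18.8 CPM in WT and did not pass (edgeR adjusted p = 0.17); its exons overlap Iah1, and it passed without WT D164 (edgeR adjusted p = 0.0169). Rhbdf2, which encodes iRhom2, the partner that carries the ADAM17 protein to the cell surface, averaged 62.9 ± 29.5 CPM in CKO and 97.8 ± 14.5 CPM in WT (edgeR adjusted p = 0.134). CKO D146, at 105 CPM, lay within the WT range of 81.6 to 110.5 CPM, and Rhbdf2 passed without that library (edgeR adjusted p = 0.00707). Frmd8 (log2 fold change -0.48; edgeR adjusted p = 0.0552), Furin (-1.07) and Sppl2b (-0.43) were lower on average in CKO and did not pass in edgeR. DESeq2 and limma-voom called Adam10 higher and Frmd8 lower. In edgeR, 6 genes of the list had an unadjusted p under 0.05, against 28.6% of all genes tested. The median over the list was -0.05.

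Among 12 genes that control Tnf mRNA, all tested, 2 fell, 1 rose and 9 did not pass in edgeR, with a median log2 fold change of -0.43. DESeq2 also called Tial1, Zfp36 and Zfp36l2 lower, and limma-voom called the same genes as edgeR. Zc3h12a, which encodes the ribonuclease Regnase-1, had 26.9, 11.9, 12.0 and 9.49 CPM in CKO D146, D149, D163 and D169, against 43.2, 44.8, 37.5 and 40.6 CPM in WT D142, D150, D154 and D164. Its log2 fold change was -1.46 ± 0.28 (SE; edgeR adjusted p = 0.0171), with no overlap. Mapkapk2, the kinase MK2 that acts on mRNA-binding proteins downstream of p38, averaged 199.8 ± 106 CPM in CKO and 448 ± 38.4 CPM in WT. CKO D146, at 353 CPM, was the nearest CKO library to the WT minimum of 398 CPM (log2 fold change -1.16 ± 0.29, SE; edgeR adjusted p = 0.0323). Cnot1, the scaffold of the CCR4-NOT complex that removes poly(A) tails, rose to 68.5 ± 7.17 CPM in CKO, against 33.3 ± 13.3 CPM in WT (edgeR adjusted p = 0.0249). Zfp36, which encodes tristetraprolin, a protein that binds AU-rich elements of Tnf mRNA and promotes its decay, averaged 993 ± 214 CPM in CKO and 1394 ± 101 CPM in WT. All CKO libraries of Zfp36 lay below all WT libraries, yet it did not pass (log2 fold change -0.49 ± 0.16, SE; edgeR adjusted p = 0.073). It passed without CKO D146 (edgeR adjusted p = 0.0324) and in DESeq2 (adjusted p = 0.0248). Exons of Cnot1 and of Zfp36 overlap antisense genes.

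In the receptor-proximal complex, 17 genes were tested, of which 3 fell, 1 rose and 13 did not pass in edgeR, with a median of -0.13. DESeq2 also called Casp8 and Rnf31 lower, and limma-voom also called Casp8 lower. Fadd, the adaptor that links death receptors to caspase-8, overlaps an antisense gene and averaged 2.83 ± 0.866 CPM in CKO and 5.80 ± 0.389 CPM in WT (edgeR adjusted p = 0.0281). Traf1, an adaptor bound to several TNF receptors, averaged 2385 ± 485 CPM in CKO and 3539 ± 226 CPM in WT (edgeR adjusted p = 0.0443). Map3k14, which encodes NIK, the kinase of the alternative NF-κB pathway, averaged 119 ± 53.0 CPM in CKO and 244 ± 52.7 CPM in WT (edgeR adjusted p = 0.0357), and CKO D146, at 196.5 CPM, lay just under WT D142 at 197.1 CPM. Cyld, a deubiquitinase that restrains NF-κB signalling, averaged 120.3 ± 18.1 CPM in CKO and 75.0 ± 20.6 CPM in WT (edgeR adjusted p = 0.0454). With an offset for GC content and gene length the log2 fold change of Cyld was 0.37, against 0.68 without it, and the call ended (edgeR adjusted p = 0.114). Leaving out CKO D149 ended the calls of Cyld, Map3k14 and Mapkapk2, with log2 fold changes of 0.71, -0.96 and -1.08, against 0.68, -1.03 and -1.16 with all libraries.

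**Figure D4:**
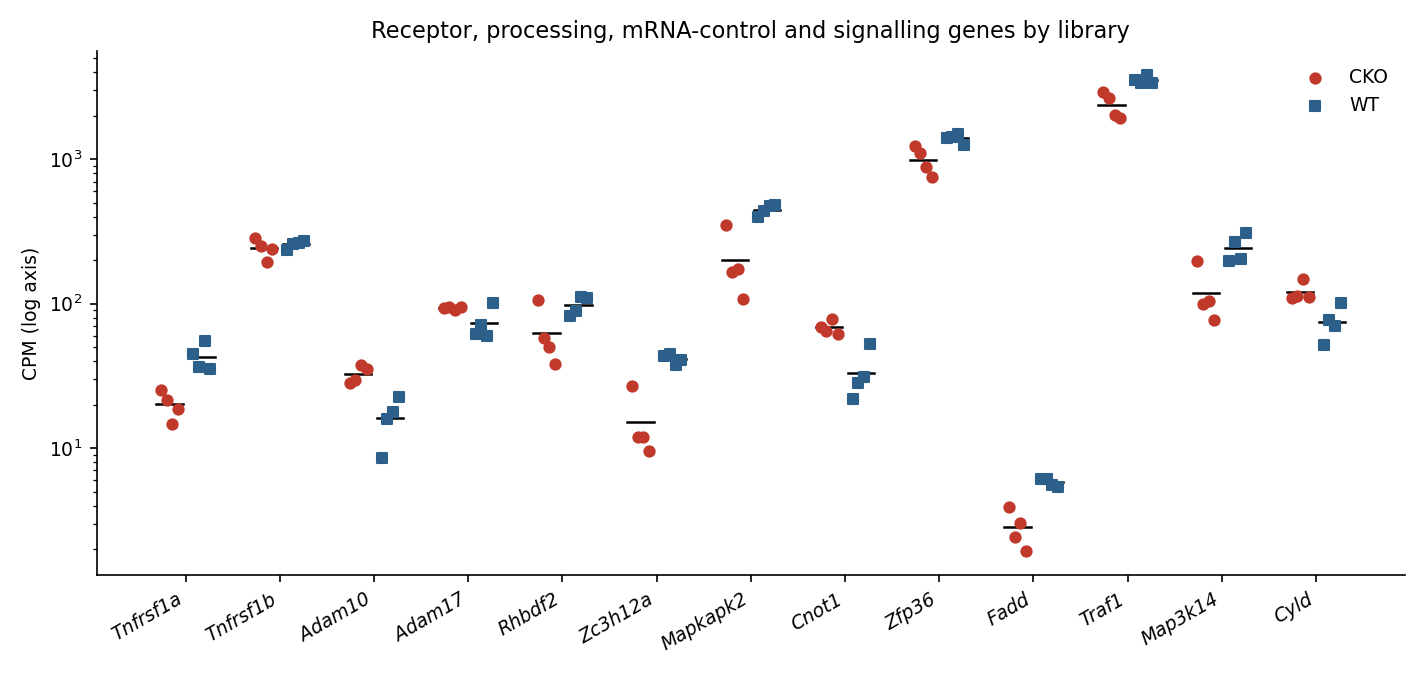
CPM (log axis) of named receptor, processing, mRNA-control and signalling genes in each library, with CKO as red circles, WT as blue squares and a black line at each group's mean. Tnfrsf1a, Zc3h12a, Mapkapk2, Fadd, Traf1 and Map3k14 are lower in CKO, Adam10, Cnot1 and Cyld are higher, and Tnfrsf1b, Adam17, Rhbdf2 and Zfp36 did not pass the test.

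Of 8 further TNF superfamily ligand genes, 2 had enough counts to test and neither passed in edgeR, at an unadjusted p of 0.05, or in DESeq2 or limma-voom. Tnfsf14 (LIGHT) averaged 10.2 ± 1.46 CPM in CKO and 11.2 ± 1.62 CPM in WT (edgeR adjusted p = 0.628). Fasl had 11.7, 7.78, 8.32 and 29.1 CPM in CKO D146, D149, D163 and D169, against 14.1, 14.2, 13.7 and 11.7 CPM in WT D142, D150, D154 and D164 (edgeR adjusted p = 0.905). The NK and innate lymphoid markers summed to 332.5 to 429 CPM in CKO, highest in D169, and to 321 to 433 CPM in WT. Il7r carried most of that sum, averaging 269 CPM in CKO and 257 CPM in WT. The part of these markers' cells in Fasl was not tested. Of 12 other receptors of the superfamily, 9 were tested and 0 passed in edgeR, DESeq2 or limma-voom. Limma-voom with quality weights called 3 lower in CKO (Cd40, Fas and Tnfrsf12a). In edgeR, 2 had an unadjusted p under 0.05, against 28.6% of all genes tested. These were Cd40, at 1334 ± 279 CPM in CKO and 1808 ± 261 CPM in WT (edgeR adjusted p = 0.116, or 0.0425 without CKO D149), and Fas, at 214 ± 21.5 CPM in CKO and 264 ± 34.7 CPM in WT (edgeR adjusted p = 0.149).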

How the data were processed

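Gene-level counts were analysed from 8 RNA-seq libraries. Per the labels' protocols, cDNA was made from polyA RNA with a low-input SMART-Seq kit, and a Vazyme kit gave the sequencing libraries. The submitters' processing notes name fastp 0.23.2, HISAT2 2.2.1 and mm10; these sources do not name the counting program, annotation or strand setting. Raw gene counts, whole numbers not normalized, were deposited with a gene length for each row, per the file headers. Without strand, overlapping genes on opposite strands cannot be told apart.

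The labels do not say that libraries are separate animals, so p-values reflect only how these samples spread, and that spread may be technical. All libraries differed beyond sampling noise (smallest chi-square per degree of freedom 46.2). The members and lists were chosen with earlier results of these data known. Named were all members, 5 fixed genes, list genes that passed or otherwise the 2 smallest p-values, and the 3 profiles nearest the member with the smallest p.

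The test was edgeR 4.0.16 (R 4.3.3; filterByExpr, TMM, robust quasi-likelihood F test), Benjamini-Hochberg over 11702 genes. The SE is the log2 fold change divided by the root of F. CPM are TMM-scaled; log2 CPM used a prior count of 2. Alternatives used DESeq2 1.42.0, limma 3.58.1 (voom) and sva 3.50.0, other scalings and filters, an offset from splines with 5 degrees of freedom of GC content and gene length (GC known for 99.9% of genes, GENCODE M21), and each library left out. The fit was tested on simulated data.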

Additional observations from a re-analysis of the deposited data

Results flagged for a closer look

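Single libraries that lay far from the other 3 of their genotype were looked for among the ligand genes tested and the other genes named, in 58 groups of 4 libraries, of which chance alone flags about 1 in 20. There were 4, all in CKO and none in a ligand gene of the 10 described. Cyld was at 147 CPM in CKO D163, against 110 to 113 CPM in the other CKO libraries. Zc3h12a was at 26.9 CPM in CKO D146, against 9.49 to 12.0 CPM in the others. Tnfsf14 was at 12.4 CPM in CKO D149, against 9.15 to 9.69 CPM in the others. Fas was at 246 CPM in CKO D149, against 202 to 204 CPM in the others.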

How the results depend on the processing

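The count of ligand genes called, 0, was also 0 in 18 of 20 alternative fits and at an adjusted p of 0.1. The exceptions were limma-voom with quality weights, which called 2 (Ltb and Tnfsf15, both higher in CKO), and the GC and length offset, which called 1 (Ltb). Over all genes, 1038 were called, against 1975 in DESeq2, 3475 with quality weights, 179 with the B cell marker covariate, 2119 at an adjusted p of 0.1 and 70 to 1468 when 1 library was left out. The lowest came without CKO D163, followed by 82 without WT D150, 138 without WT D154, 347 without WT D142 and 457 without CKO D169. In the 6 related lists 9 genes were called, against 17 in DESeq2, 25 with quality weights, 0 with the B cell marker covariate, 15 with 1 surrogate variable, 18 at an adjusted p of 0.1 and 0 to 17 when 1 library was left out. The cause was not tested. Total-count scaling shifted the median of all genes to 0.19 on the log2 scale and gave 1080 higher and 311 lower calls, against 503 and 535. None of the 9 related genes called changed sign in any alternative. The called marker genes were not followed through the alternatives. No paired analysis was possible because the genotypes share no library number. Depth left Tnfsf13b untested.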
